A study of Homo sapiens with 6 samples.

Results

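The genes described here sense double-stranded RNA, edit it, relay the alarm it raises, or are switched on by the interferon that follows. They were taken by symbol from a list of 37 human genes of known role. No measured value enters the rule, though the list was drawn up with earlier results of these data known. By symbol, 30 of the 37 genes were found in the table of counts, among 16199 genes in all. RIGI was found under its older symbol DDX58. No row was found by symbol or older symbol for IRF7, IRF9, IFIT2, IFIT3, OAS1, IFI16 or IFI44, which are not analysed here. Of the rows, 1243 carry an Ensembl ID in place of a symbol, and these were not searched for the missing genes.

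RNA was sequenced from H1 cells, an established human embryonic stem cell line, in 6 libraries. In 2 libraries the cells were hemizygous for the Dicer change S1344L, in 2 they were homozygous for it, and 2 were wild type. The edited cells were made with CRISPR-Cas9. S1344L exchanges a serine for a leucine in the RNase IIIa domain of Dicer and is a hotspot change in cancer. No drug, virus, interferon or added RNA is named in the labels for any group, and all 3 genotypes share the H1 background. The sample descriptions code the hemizygous libraries pmfs and the homozygous ones pmpm, and no label spells the codes out or states in words what the other DICER1 allele of hemizygous cells carries. Nor do the labels say whether the 2 libraries of a genotype came from separate clones or cultures. The p-values below therefore measure the spread between libraries, which may be technical.

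Dicer cuts long double-stranded RNA and microRNA precursors, and so acts on the same kind of molecule that the innate sensors bind. RIG-I (gene RIGI) and MDA5 (IFIH1) bind double-stranded RNA in the cytosol and signal through MAVS to the kinases TBK1 and IKK-epsilon, which activate IRF3 and with it the interferon-beta gene. Secreted interferon binds the receptor of IFNAR1 and IFNAR2, and JAK1, TYK2, STAT2 and IRF9 then switch on interferon-stimulated genes. Human embryonic stem cells are known for a weak interferon response together with constant expression of some interferon-stimulated genes, the IFITM genes among them. The comparisons ask whether stem cells with the altered Dicer carry the transcript signature of a double-stranded RNA response.

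That response is read out through promoters that carry the interferon-stimulated response element, bound by STAT2 with its partners or by interferon regulatory factors. The letters GAAANNGAAA, or TTTCNNTTTC where the element lies on the other strand, were searched in the window from 250 bases before to 50 after each RefSeq gene start (GRCh38.p14), and overlapping matches were both counted. RefSeq promoters were given for 31 of the 37 listed genes, and 16 of these (51.6%) held the letters, against 1195 of 27305 genes overall (4.38%). A gene with several promoters was counted once, as holding the letters if any of them did. Among the genes in the table, 11 of the 13 interferon-stimulated genes with a promoter (84.6%) held them, as did 2 of 3 sensors and EIF2AK2. None of the 3 genes of the adaptor group with a promoter and none of the 4 of the receptor group did. The windows shown are those of 2 sensors, of the kinase PKR (EIF2AK2) and of 4 interferon-stimulated genes whose values are given below. They read 5′ to 3′ on the strand of the gene, with the matching letters in capitals.
IFIH1, chr2:162318814-162318863, minus strand: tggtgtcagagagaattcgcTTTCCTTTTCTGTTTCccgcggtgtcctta
TLR3, chr4:186069132-186069181, plus strand: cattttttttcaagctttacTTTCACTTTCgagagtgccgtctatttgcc
EIF2AK2, chr2:37156957-37157006, minus strand: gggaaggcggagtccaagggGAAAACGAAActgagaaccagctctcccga
ISG15, chr1:1013364-1013413, plus strand: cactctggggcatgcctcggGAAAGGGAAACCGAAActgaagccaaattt
IFIT1, chr10:89392487-89392536, plus strand: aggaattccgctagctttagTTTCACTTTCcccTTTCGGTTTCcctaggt
OAS3, chr12:112938311-112938360, plus strand: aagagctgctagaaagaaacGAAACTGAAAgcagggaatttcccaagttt
IFITM3, chr11:320883-320932, minus strand: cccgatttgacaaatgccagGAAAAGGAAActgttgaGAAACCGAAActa
In ISG15 and IFIH1 matching stretches overlap, and in IFIT1 and IFITM3 separate ones follow each other within the window. A match is a description of the letters and does not show that a protein binds there.

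The libraries held 38164848 to 52924532 counts. All 12 listed pluripotent stem cell markers were in the table, at 84.4 to 2959 CPM (TMM-normalised read counts scaled to a common library size). They summed to 11234 and 12413 CPM in hemizygous, 10861 and 11480 CPM in homozygous and 10416 and 10893 CPM in wild-type libraries. Against wild type, 11 were above 0 and 1 below in hemizygous cells (median log2 fold change 0.15). In homozygous cells 8 were above and 4 below (median 0.08), and none of the 12 was called in either comparison. The 6 of 10 fibroblast and mesenchyme markers present summed to 927 and 1055 CPM in hemizygous, 858 and 888 CPM in homozygous and 1023 and 1108 CPM in wild-type libraries, so the homozygous libraries were the lowest. The 5 of 8 neural ectoderm markers present summed to 500 and 596 CPM in hemizygous, 440 and 450 CPM in homozygous and 484 and 528 CPM in wild-type libraries. That sum was again lowest in homozygous cells, though its genes differed in direction. Against wild type, 2 were above and 3 below in homozygous cells, with FABP7 the highest at a log2 fold change of 1.20. In hemizygous cells 4 were above and 1 below, with ZIC1 the highest at 1.54. None of the 5 was called. The 4 of 10 endoderm and mesoderm markers present summed to 338 and 397 CPM in hemizygous, 365 and 381 CPM in homozygous and 262 and 278 CPM in wild-type libraries, so both edited genotypes were above wild type, and KDR made up most of each sum. The part of these markers in the results was not tested. DICER1 itself had 118 and 96.4 CPM in hemizygous, 129 and 118 CPM in homozygous and 169 and 126 CPM in wild-type libraries. Both hemizygous libraries lay below both wild-type libraries, as did 9.21% of all genes, and homozygous and wild-type libraries overlapped. With 1 library left out, the log2 fold change against wild type ran from -0.65 to -0.23 in hemizygous and from -0.44 to -0.024 in homozygous cells. A change of 1 amino acid need not alter the count of the gene. What the other allele of hemizygous cells carries is not stated, so these counts do not check the labels.

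Levels per length, as counts per kilobase of annotated exon scaled to the same total in each library, spread the genes over a wide range. IFITM1, which blocks the entry of enveloped viruses, was the highest of the 30 at a mean of 813, with a range over the 6 libraries of 692 to 888. Its relative IFITM3 followed at 649 and IFITM2 at 183. ADAR, the main RNA editing enzyme, averaged 150 on this scale. The cytosolic sensors stood at the other end, RIGI at 1.10 and IFIH1 at 0.882, and OAS3 was the lowest at 0.685. In RNA from a whole culture, fewer cells that express a gene and less RNA per cell cannot be told apart. The order between these extremes is shown in the plot of levels per length.

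**Figure D1:**
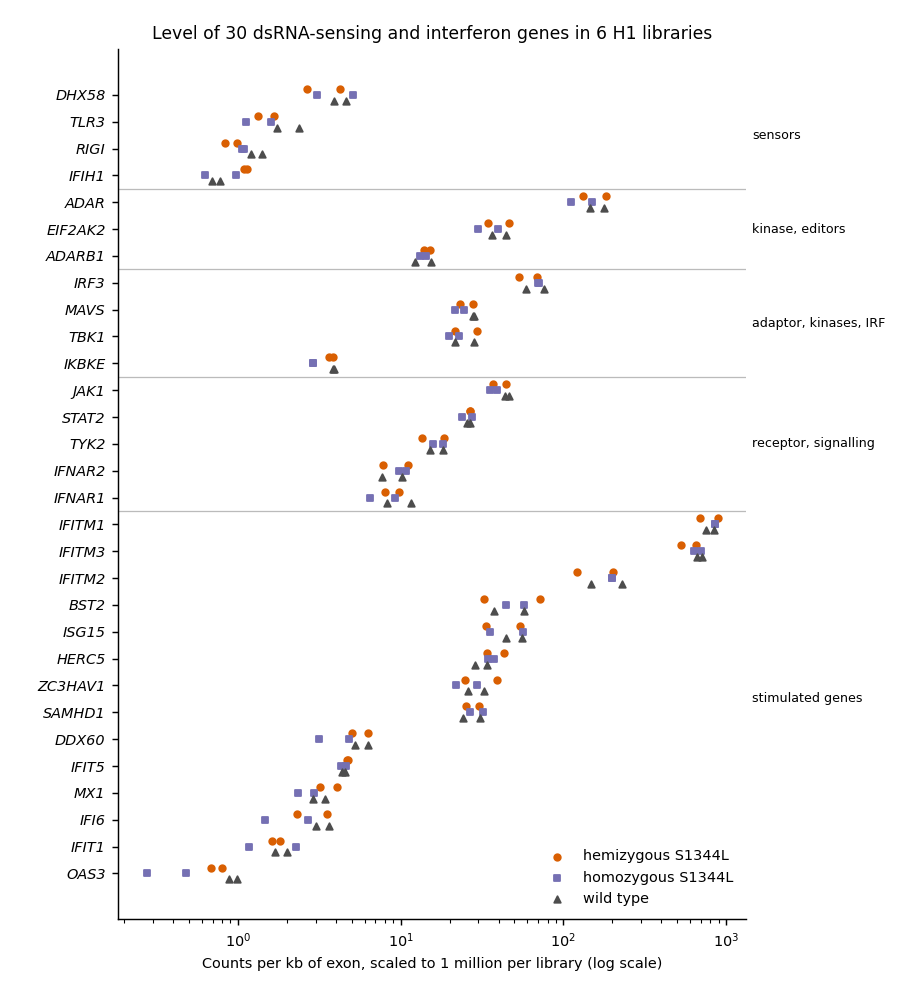
Counts per kilobase of exon, scaled to the same total in each library (logarithmic axis), for each of the 30 genes in the 2 hemizygous, 2 homozygous and 2 wild-type libraries, with the genes grouped by role. The IFITM genes and ADAR sit at the top of the range and RIGI, IFIH1 and OAS3 at the bottom by mean level.

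In hemizygous against wild-type cells no gene of the pathway passed the test. With edgeR's quasi-likelihood test and Benjamini-Hochberg adjustment over all genes, 0 of the 30 were called, and the share of all 16199 genes called was 0%. At an unadjusted p under 0.05 the counts were 0 of the 30 and 0.870% of all genes. The fitted log2 fold change was above 0 for 12 genes and below 0 for 18, with a median of -0.04, beside 7959 and 8240 genes and a median of -0.003 over the table. Both hemizygous libraries lay above both wild-type libraries in 2 genes, IFIH1 and IFIT5, where 8.13% of all genes did so. Both lay below in 5 genes, RIGI, TLR3, IKBKE, OAS3 and IFITM3, where 9.21% of all genes did so.

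In homozygous against wild-type cells 0 of the 30 genes were called by the same test, again beside 0% of all genes. At an unadjusted p under 0.05 there was 1 gene, OAS3, and 2.69% of all genes. The fold change was above 0 for 11 and below 0 for 19, with a median of -0.08, beside -0.003 for all genes. With upper-quartile factors the split was 14 above and 16 below, at a median of -0.04. Both homozygous libraries lay below both wild-type libraries in 8 genes, RIGI, TLR3, MAVS, IKBKE, JAK1, OAS3, IFI6 and DDX60, against a share of 13.6% of all genes. IFITM1 was the 1 gene in which both lay above, against 14.2%. The wild-type libraries are the same as in the hemizygous comparison, so the results of both comparisons are not independent.

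Homozygous against hemizygous cells gave 0 calls among the 30 genes and among all genes (0%). OAS3 was the 1 gene with an unadjusted p under 0.05, beside 0.765% of all genes. The median was -0.07, beside -0.000 for all genes, with 11 genes above 0 and 19 below. Both homozygous libraries were higher in RIGI, IRF3 and IFITM3 (3 genes, against 11.0% of all genes) and lower in IFIH1, IKBKE, MX1, OAS3 and DDX60 (5 genes, against 10.4%).

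The sizes of change that the fit allows for each gene are given by the 95% intervals of the fold changes. These intervals are not adjusted for the number of genes, so they do not give the size of change that the adjusted test could miss. They excluded a 2-fold rise for 28 of the 30 genes in hemizygous against wild-type cells, the exceptions being IFIH1 and BST2. In homozygous against wild-type cells they excluded it for 29, the exception being BST2, and between homozygous and hemizygous cells for 29, the exception being DHX58. A 2-fold fall was excluded for 25, 26 and 25 genes in those comparisons. RIGI, DHX58, TLR3, OAS3 and IFI6 were open to it in hemizygous against wild-type cells, and TLR3, OAS3, IFI6 and DDX60 in homozygous against wild-type cells. Between homozygous and hemizygous cells these were IFIH1, MX1, OAS3, IFI6 and DDX60. A 2-fold change in both directions was excluded for 23, 25 and 24 of the 30 genes in the 3 comparisons. The shares of all genes were 80.0%, 75.6% and 76.3%.

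**Figure D2:**
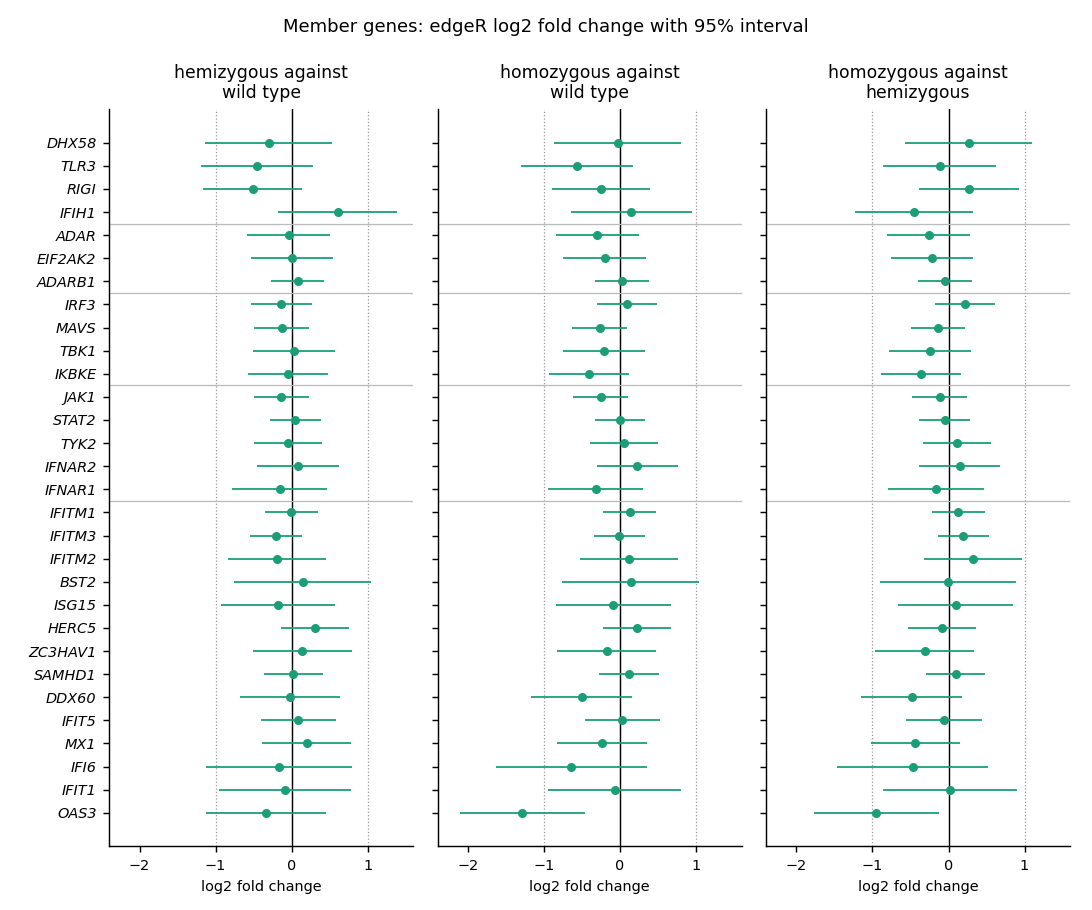
Log2 fold change from edgeR (points) with its 95% interval (lines) for each of the 30 genes in the 3 comparisons, grouped by role, with dotted lines at a 2-fold change. The intervals of OAS3 in the comparisons of homozygous cells are the ones that do not reach 0.

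Of the sensors, RIGI, which binds short double-stranded RNA with a triphosphate end, had 1.04 and 1.20 CPM in hemizygous, 1.34 and 1.35 CPM in homozygous and 1.52 and 1.69 CPM in wild-type libraries. The 3 genotypes did not overlap, and wild type was the highest. The log2 fold change was -0.52 ± 0.27 (SE) in hemizygous and -0.25 ± 0.27 in homozygous cells against wild type, and edgeR's adjusted p was 1.00 for both. IFIH1, the sensor of long double-stranded RNA, had 1.67 and 1.56 CPM in hemizygous, 0.903 and 1.45 CPM in homozygous and 1.02 and 1.10 CPM in wild-type libraries. Both hemizygous libraries were above the other 4, while the homozygous pair lay on either side of the wild-type pair. Its fold change of 0.60 ± 0.33 in hemizygous against wild-type cells (95% interval -0.18 to 1.39) was the highest of the 30 in that comparison and did not pass the test.

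TLR3, the endosomal receptor for double-stranded RNA, had 3.23 and 2.49 CPM in hemizygous, 2.14 and 3.13 CPM in homozygous and 3.39 and 4.43 CPM in wild-type libraries. All 4 edited libraries lay below both wild-type libraries, and the edited genotypes overlapped each other. The log2 fold change was -0.45 ± 0.31 in hemizygous and -0.57 ± 0.31 in homozygous cells against wild type. DHX58 encodes LGP2, a relative of the cytosolic sensors that has no signalling domain. It had 2.95 and 4.56 CPM in hemizygous, 3.33 and 5.74 CPM in homozygous and 4.36 and 4.91 CPM in wild-type libraries. The genotypes overlapped, and in each genotype replicate 1 was the lower library.

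The kinase and the editing enzymes were far more abundant, and their genotypes overlapped. EIF2AK2 encodes PKR, the kinase that stops translation when it binds double-stranded RNA. It had 145 and 104 CPM in hemizygous, 120 and 93.3 CPM in homozygous and 138 and 108 CPM in wild-type libraries, with a log2 fold change of 0.01 ± 0.23 in hemizygous and -0.20 ± 0.23 in homozygous cells against wild type. The groups overlapped, and replicate 1 was higher in all 3. ADAR, which edits adenosines in double-stranded RNA and so keeps cellular RNA from the sensors, had 511 and 358 CPM in hemizygous, 408 and 317 CPM in homozygous and 499 and 393 CPM in wild-type libraries. Replicate 1 was again the higher in all 3 genotypes, and homozygous replicate 1 lay above wild-type replicate 2. Compared within the same replicate number, the homozygous library was below the wild-type library both times. The log2 fold change of ADAR in homozygous against wild-type cells was -0.30 ± 0.23, and -0.30 ± 0.09 once replicate number was blocked, with an adjusted p of 0.350 in edgeR. ADARB1, the second catalytic editor, had 40.2 and 42.4 CPM in hemizygous, 37.6 and 42.2 CPM in homozygous and 35.5 and 42.7 CPM in wild-type libraries. Its groups overlapped, and its fold changes were within 0.08 of 0 in every comparison.

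MAVS, the mitochondrial adaptor through which the cytosolic sensors signal, had 94.2 and 76.4 CPM in hemizygous, 81.1 and 74.2 CPM in homozygous and 96.9 and 90.1 CPM in wild-type libraries. The homozygous pair lay below the wild-type pair, and hemizygous replicate 1 lay between the wild-type libraries. The log2 fold change of MAVS in homozygous against wild-type cells was -0.27 ± 0.15 (95% interval -0.63 to 0.09). IKBKE, the gene of IKK-epsilon, had 3.99 and 4.06 CPM in hemizygous, 3.08 and 3.20 CPM in homozygous and 4.22 and 4.09 CPM in wild-type libraries. Its homozygous libraries were below the other 4, at -0.40 ± 0.22 against wild type and -0.36 ± 0.22 against hemizygous cells on the log2 scale. Neither IKBKE difference was called.

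TBK1, the partner kinase, ranged from 27.6 CPM to 40.5 CPM over the 6 libraries and its genotypes overlapped. An antisense gene covers part of its exons, and reads of the pair cannot be told apart in libraries without strand. IRF3, the transcription factor that the kinases activate, had 58.7 and 72.7 CPM in hemizygous, 75.6 and 77.6 CPM in homozygous and 64.8 and 79.5 CPM in wild-type libraries. The homozygous pair was above the hemizygous pair and within the wild-type range, at 0.22 ± 0.17 and 0.09 ± 0.17 on the log2 scale. BCL2L12 on the opposite strand covers 19.3% of the exon length of IRF3, so some of its counts may belong to that gene.

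**Figure D3:**
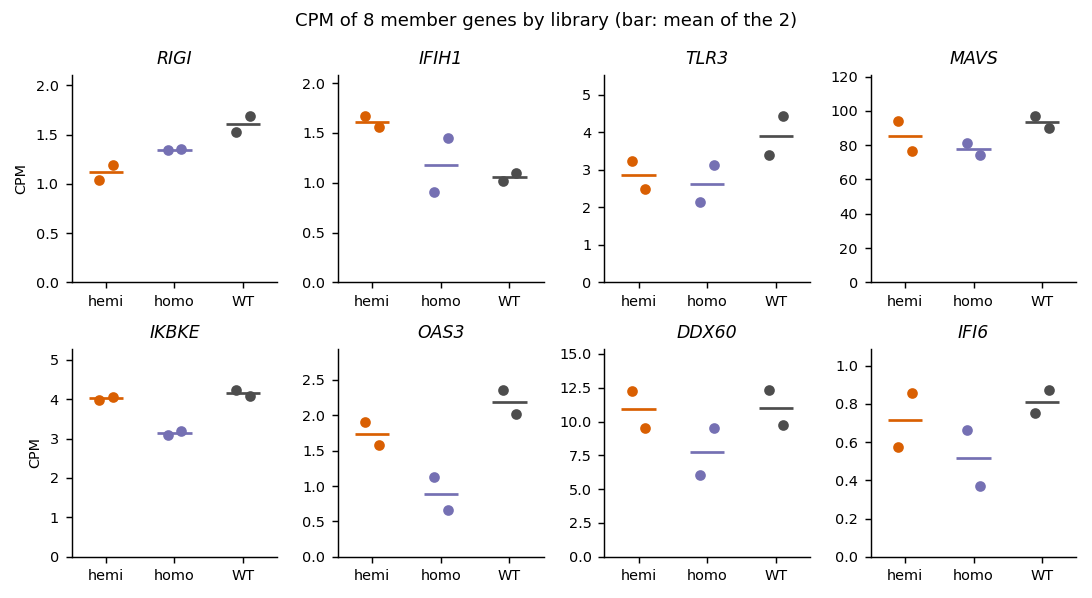
CPM in each library (points) with the mean of the genotype (bars) for RIGI, IFIH1, TLR3, MAVS, IKBKE, OAS3, DDX60 and IFI6, with hemizygous, homozygous and wild-type libraries from left to right. The OAS3 panel has the homozygous libraries at 1.12 and 0.665 CPM, below the other 4 libraries.

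Among the receptor and its signalling genes, JAK1, a kinase bound to the interferon receptor, had 80.6 and 65.7 CPM in hemizygous, 69.6 and 65.1 CPM in homozygous and 84.8 and 76.2 CPM in wild-type libraries. The homozygous pair lay below the wild-type pair and overlapped the hemizygous pair. Its log2 fold change in homozygous against wild-type cells was -0.26 ± 0.15. STAT2, the transcription factor of the pathway that type I interferon activates, had 47.4 and 45.6 CPM in hemizygous, 41.2 and 48.7 CPM in homozygous and 46.9 and 43.1 CPM in wild-type libraries. The STAT2 groups overlapped and its fold changes lay between -0.05 and 0.05. IFNAR1, a chain of the receptor, ranged from 11.9 to 21.2 CPM. The other chain, IFNAR2, had 10.3 to 14.6 CPM, with most of its exon length (83.2%) shared with other annotated genes. The kinase TYK2 had 26.6 to 36.1 CPM, and for none of these 3 did the genotypes separate.

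The 14 interferon-stimulated genes in the table were centred near 0. Their median log2 fold change was -0.01 in hemizygous and -0.04 in homozygous cells against wild type, and -0.03 in homozygous against hemizygous cells, with 6 genes above 0 and 8 below in each comparison. OAS3 (chr12:112938352-112973249, plus strand, hg38, GENCODE 29) had the largest difference of all 30 genes. It encodes a synthetase that double-stranded RNA switches on and that activates RNase L. Its level was 1.90 and 1.58 CPM in hemizygous, 1.12 and 0.665 CPM in homozygous and 2.35 and 2.02 CPM in wild-type libraries. The genotypes did not overlap, and homozygous cells had the lowest values, with a mean of 0.894 ± 0.325 CPM, against 2.19 ± 0.234 CPM in wild-type cells (SD, n = 2 each). The log2 fold change was -1.28 ± 0.34 against wild type (95% interval -2.11 to -0.46) and -0.95 ± 0.35 against hemizygous cells (-1.78 to -0.12). Both failed the correction, with an adjusted p from edgeR of 1.00 against wild type and 0.999 against hemizygous cells. OAS3 was the least abundant of the 30 genes per length.

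DDX60, a helicase linked to RIG-I signalling, had 12.3 and 9.53 CPM in hemizygous, 6.04 and 9.53 CPM in homozygous and 12.3 and 9.77 CPM in wild-type libraries. Homozygous replicate 1 was the lowest library, and homozygous replicate 2 lay just under the others. The log2 fold change of DDX60 in homozygous against wild-type cells was -0.51 ± 0.28 and was not called. IFI6, a small mitochondrial and membrane protein that interferon induces strongly, had 0.574 and 0.854 CPM in hemizygous, 0.661 and 0.369 CPM in homozygous and 0.752 and 0.870 CPM in wild-type libraries. The homozygous pair was below the wild-type pair and overlapped the hemizygous pair, and the lowest of these values rested on 15 counts. Its log2 fold change against wild type was -0.64 ± 0.41 in homozygous cells.

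IFITM1 had 216 and 268 CPM in hemizygous, 259 and 271 CPM in homozygous and 235 and 250 CPM in wild-type libraries. Both homozygous values were above the wild-type pair, and the hemizygous pair spanned it, at log2 fold changes of 0.13 ± 0.15 and -0.00 ± 0.15. IFITM3 had 205 and 248 CPM in hemizygous, 268 and 251 CPM in homozygous and 259 and 263 CPM in wild-type libraries, so the hemizygous pair was the lowest, at -0.21 ± 0.14 against wild type. IFITM2 had 54.2 and 87.7 CPM in hemizygous, 86.7 and 90.3 CPM in homozygous and 65.9 and 97.0 CPM in wild-type libraries, and its genotypes overlapped. These genes are close paralogs, and IFITM1 and IFITM2 share annotated exons, so how the authors' counting divided reads among them is uncertain.

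ISG15, the ubiquitin-like protein that is among the earliest interferon products, had 9.10 and 14.3 CPM in hemizygous, 9.43 and 15.6 CPM in homozygous and 12.1 and 14.6 CPM in wild-type libraries. IFIT1, which binds viral RNA ends, had 2.16 and 2.33 CPM in hemizygous, 1.52 and 3.05 CPM in homozygous and 2.26 and 2.53 CPM in wild-type libraries. The genotypes overlapped for both genes, and replicate 1 was the lower library in all 3 genotypes. IFIT5, another RNA-binding IFIT protein, had 5.48 and 5.29 CPM in hemizygous, 4.89 and 5.44 CPM in homozygous and 5.26 and 4.86 CPM in wild-type libraries. Its hemizygous pair was above its wild-type pair by a log2 fold change of only 0.09 ± 0.21. MX1, a GTPase that traps viral capsids, had 10.1 and 7.65 CPM in hemizygous, 5.73 and 7.38 CPM in homozygous and 8.52 and 6.91 CPM in wild-type libraries. The homozygous pair lay below the hemizygous pair, at -0.43 ± 0.25, and neither edited genotype separated from wild type. The genotypes overlapped in every comparison for the other 4 genes. BST2, which tethers budding virus, had 10.5 to 22.4 CPM and HERC5, the ligase of ISG15, had 37.7 to 59.6 CPM over the 6 libraries. ZC3HAV1, which binds CpG-rich viral RNA, had 52.4 to 93.5 CPM, and SAMHD1, which degrades deoxynucleotides, had 78.7 to 102 CPM.

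Summed over the 14 genes, the interferon-stimulated transcripts came to 762 and 866 CPM in hemizygous, 874 and 865 CPM in homozygous and 819 and 862 CPM in wild-type libraries. Without the 3 IFITM genes the sums were 287 and 262 CPM in hemizygous, 260 and 253 CPM in homozygous and 259 and 251 CPM in wild-type libraries. The hemizygous libraries were the highest in the shorter sum and homozygous and wild-type libraries overlapped. The margin was narrow, with 261.8 CPM in hemizygous replicate 2 and 260.4 CPM in homozygous replicate 1. HERC5, ZC3HAV1 and SAMHD1, whose genotypes overlapped in every comparison, made up most of that sum.

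The genes were also split by whether their promoters held the interferon-response letters. The 14 genes of the table whose promoters held them had median log2 fold changes of -0.01 in hemizygous and -0.08 in homozygous cells against wild type. For the 12 with a promoter window and no match these were -0.04 and -0.23. Between homozygous and hemizygous cells the medians were -0.10 with the letters and -0.13 without. Of the 16199 genes of the table, 11412 were matched to a promoter by symbol. Of these, 424 had the letters and none of the 424 was called by edgeR. At an unadjusted p under 0.05 there was 1 such gene in hemizygous against wild-type cells (0.236%, beside 0.928% of the 10988 genes without the letters) and 15 in homozygous against wild-type cells (3.54%, beside 2.58%). Between homozygous and hemizygous cells there were 8 (1.89%, beside 0.701%). The share above 0 was 51.4% with the letters and 48.6% without in hemizygous against wild-type cells, and 43.6% and 47.1% in homozygous against wild-type cells. It was 39.6% with the letters and 47.9% without between homozygous and hemizygous cells, the widest gap of the 3. No test was run on these shares.

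Libraries of 1 genotype also differed from each other. The median absolute log2 ratio of replicate 1 to replicate 2 over the 30 genes was 0.354 in hemizygous, 0.248 in homozygous and 0.269 in wild-type cells, beside 0.290, 0.207 and 0.249 over all genes. In all 3 genotypes replicate 1 was the higher library for 8 genes, EIF2AK2, ADAR, MAVS, TBK1, IFNAR1, JAK1, OAS3 and ZC3HAV1, and 29.9% of all genes did the same. It was the lower library for 11 genes, RIGI, DHX58, ADARB1, IRF3, IFNAR2, TYK2, ISG15, IFIT1, IFITM1, IFITM2 and BST2, beside 28.3% of all genes.

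**Figure D4:**
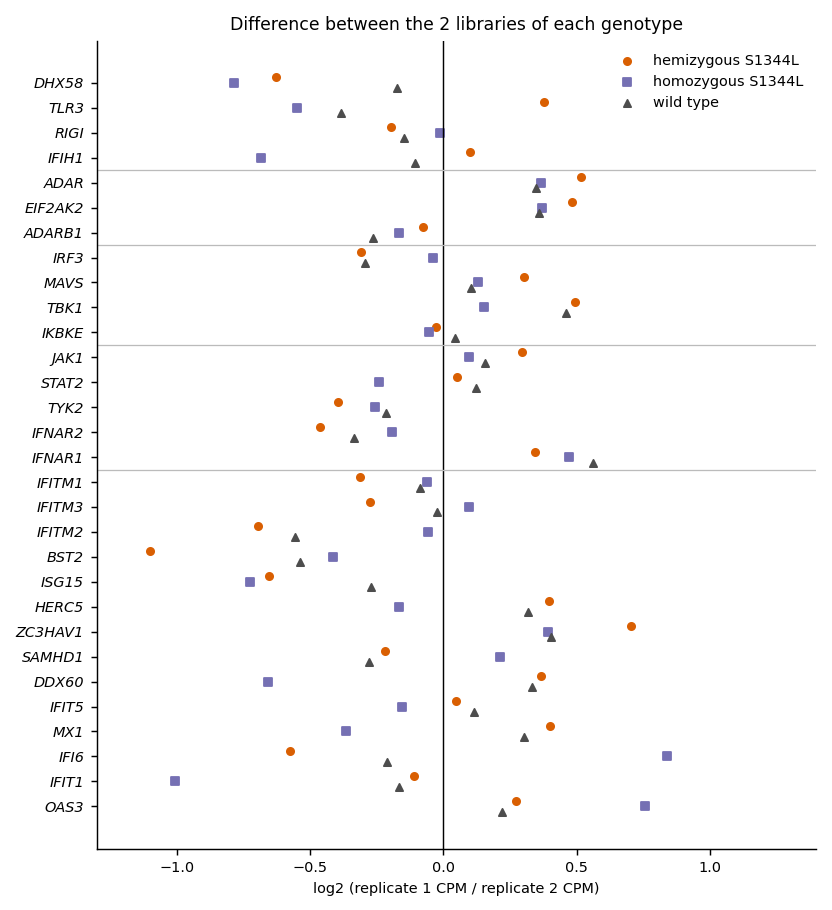
Log2 ratio of replicate 1 to replicate 2 CPM for each of the 30 genes, with circles for hemizygous, squares for homozygous and triangles for wild-type cells. ADAR, EIF2AK2 and ZC3HAV1 lie right of 0 in all 3 genotypes, and BST2, ISG15 and DHX58 lie left of it.

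Taking the replicate number as a block removes that shared difference. In edgeR with the block, 0 of the 30 genes were called in any comparison, where the share of all genes called was 0.00617% in hemizygous against wild-type cells, 0% in homozygous against wild-type cells and 0.00617% between the edited genotypes. DESeq2 with the block also called 0 of the 30, beside 0.142% of all genes in hemizygous and 0.747% in homozygous cells against wild type, and 0.148% between the edited genotypes. At an unadjusted p under 0.05 OAS3, ADAR, MAVS, JAK1 and IFNAR1 were lower in homozygous than in wild-type cells (5 of 30, beside 12.0% of all genes). Their adjusted p ran from 0.316 to 0.392 in edgeR with the block. Between homozygous and hemizygous cells OAS3, ADAR and ZC3HAV1 were lower and IFITM2 was higher at that level (4 of 30, beside 8.20% of all genes), each with an adjusted p of 0.573 in edgeR with the block. In hemizygous against wild-type cells there was no such gene, beside 3.80% of all genes.

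Further genes of the same pathways were taken from lists of 148 symbols, of which 104 had a row. None was called by edgeR in any comparison. In hemizygous against wild-type cells 48 were above 0 and 56 below (median -0.01), and 0 had an unadjusted p under 0.05, beside 0.870% of all genes. In homozygous against wild-type cells 33 were above and 71 below (median -0.07), and 5 had an unadjusted p under 0.05, beside 2.69% of all genes. In homozygous against hemizygous cells 35 were above and 69 below (median -0.07), and 1 had an unadjusted p under 0.05, beside 0.765% of all genes. The whole table split almost evenly, at 7982 above and 8217 below in homozygous against wild-type cells and 8082 above and 8117 below in homozygous against hemizygous cells.

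SOCS1, an inhibitor of JAK kinases that interferon induces, had 31.4 and 30.2 CPM in hemizygous, 40.3 and 50.6 CPM in homozygous and 23.7 and 36.2 CPM in wild-type libraries. Both homozygous libraries were the highest, at a log2 fold change of 0.60 ± 0.23 against wild type and 0.56 ± 0.23 against hemizygous cells. Its adjusted p against wild type was 1.00 in edgeR and 0.0442 in DESeq2 with the replicate block. NFKB1, a subunit of NF-kB, had 13.9 and 9.15 CPM in hemizygous, 8.75 and 7.85 CPM in homozygous and 17.0 and 12.3 CPM in wild-type libraries. The homozygous pair was the lowest, at -0.82 ± 0.26 against wild type, with an adjusted p of 1.00 in edgeR and 0.0174 in DESeq2 with the block. The lists of both genes were near 0 in that comparison. The 17 interferon signalling genes had 7 above 0 and 10 below, with a median of -0.003. The 11 NF-kB genes had 5 above and 6 below, with a median of -0.04 and RELB the highest at 0.42. 

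In the lists of other double-stranded RNA-binding, sensing and adaptor genes, no gene was called in any setting run. Of the 15 RNA-binding genes and Dicer partners, 10 were above 0 and 5 below in hemizygous against wild-type cells (median 0.04). In homozygous against wild-type cells 3 were above and 12 below (median -0.07). The 20 sensing and adaptor genes had 8 above and 12 below in hemizygous cells (median -0.03), and 6 above and 14 below in homozygous cells (median -0.08). TARBP2, a Dicer partner, had 34.8 and 45.4 CPM in hemizygous, 42.1 and 46.7 CPM in homozygous and 36.8 and 41.0 CPM in wild-type libraries. PRKRA, the other partner and an activator of PKR, stayed between 53.0 and 59.4 CPM in all 6. TICAM1, the adaptor of TLR3, was at 1.33 and 1.46 CPM in hemizygous, 0.837 and 0.862 CPM in homozygous and 0.926 and 1.33 CPM in wild-type libraries, lowest in the homozygous pair, and its -0.40 ± 0.32 against wild type was not called. TRAF3, a ligase downstream of MAVS, had 30.6 and 30.6 CPM in hemizygous, 32.5 and 31.5 CPM in homozygous and 35.1 and 32.9 CPM in wild-type libraries, with wild type the highest.

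Of the other interferon-stimulated genes, 26 of 47 had a row, with medians of 0.02 and -0.08 in hemizygous and homozygous cells against wild type. B2M, the light chain of MHC class I, had 15.0 and 14.2 CPM in hemizygous, 13.6 and 14.0 CPM in homozygous and 17.7 and 17.7 CPM in wild-type libraries. Both edited genotypes were below wild type, at -0.28 ± 0.14 and -0.36 ± 0.14 on the log2 scale. TRIM14, which works with MAVS, had 36.4 and 36.9 CPM in hemizygous, 40.4 and 37.8 CPM in homozygous and 32.6 and 32.4 CPM in wild-type libraries, with both edited genotypes above wild type. TRIM22, an antiviral ligase, differed within genotypes, with 57.5 and 25.6 CPM in hemizygous, 17.5 and 26.3 CPM in homozygous and 62.6 and 24.6 CPM in wild-type libraries, and its groups overlapped. It was chosen after its values were seen.

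PKR acts by phosphorylating eIF2-alpha, whose transcriptional output runs through ATF4. The list of 15 genes for that arm holds outputs together with the kinases EIF2AK1, EIF2AK3 and EIF2AK4 and the factors EIF2S1 and EIF2B5. Its medians, which therefore do not describe outputs alone, were -0.08 in hemizygous and -0.13 in homozygous cells against wild type. In hemizygous cells 3 genes were above 0 and 12 below, and in homozygous cells 4 and 11. ATF4 itself had 335 and 357 CPM in hemizygous, 304 and 363 CPM in homozygous and 361 and 369 CPM in wild-type libraries, at -0.07 ± 0.14 and -0.13 ± 0.14. Its targets ASNS, asparagine synthetase, and CHAC1, which degrades glutathione, were lowest in the homozygous libraries. ASNS had 5.19 and 2.66 CPM in hemizygous, 2.07 and 2.51 CPM in homozygous and 6.32 and 3.27 CPM in wild-type libraries, and CHAC1 had 15.0 and 13.9 CPM in hemizygous, 11.7 and 11.8 CPM in homozygous and 22.3 and 14.5 CPM in wild-type libraries. Their log2 fold changes in homozygous against wild-type cells, -1.07 ± 0.44 and -0.65 ± 0.23, had an adjusted p of 1.00 in edgeR. VLDLR of the same list went the other way, with both edited genotypes above wild type without overlap. With 1 library left out, its log2 fold change ran from 0.063 to 0.16 in hemizygous and from 0.13 to 0.33 in homozygous cells. DDIT4, chosen after its values were seen, had 149 CPM in homozygous replicate 1 and 34.7 to 45.7 CPM in the other 5 libraries.

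**Figure D5:**
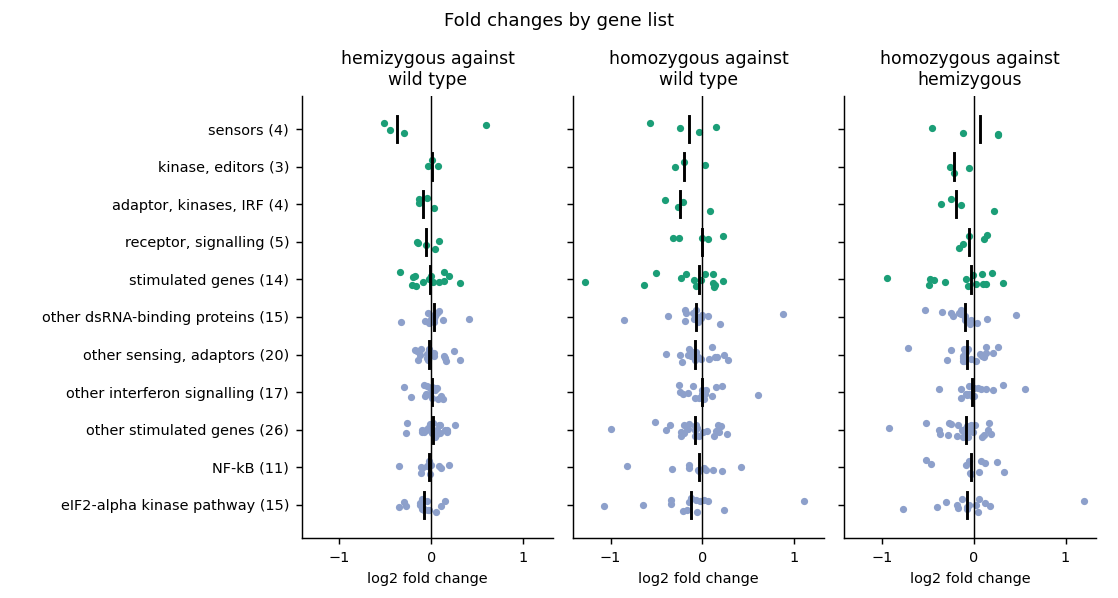
Log2 fold change from edgeR for each gene (points) and the median (bars) of the 5 groups that make up the 30 genes (green) and of the 6 lists of further pathway genes (blue), in the 3 comparisons, with the number of genes in brackets. Most points lie within 1 log2 unit of 0, and the medians of the 14 interferon-stimulated genes are -0.01, -0.04 and -0.03.

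No interferon gene's own transcript is described here, since IFNA1, IFNB1, IFNE, IFNK, IFNL1 and IFNG were searched by symbol and no row was found. The table holds only genes with more than 0.5 CPM in at least 3 libraries, so a gene that is on in the 2 libraries of 1 genotype alone would have no row. A response of 1 genotype alone, seen only in the 7 genes not found, would therefore not show in these values. Nor would a response in any of them whose row is named by an Ensembl ID. Both limits hold for the 44 of 148 further pathway symbols for which no row was found, RSAD2, IFI27, IFI44L, CMPK2 and CXCL10 among them.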

How the data were processed

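The authors deposited 1 table of raw counts, whole numbers per gene, for 6 libraries. Total RNA was made into TruSeq RNA v2 libraries, per the labels' protocols, a kit that does not mark strand. Reads were handled with cutadapt and HISAT2 on hg38, per the submitters' processing notes. The counting program is not given in the sources used here. All 16199 genes were fitted with edgeR 4.0.16 (R 4.3.3; TMM, filterByExpr, quasi-likelihood test, genotype only, Benjamini-Hochberg adjusted p under 0.05), after tests on simulated counts. DESeq2 1.42.0 and voom of limma 3.58.1 were alternatives. Lengths came from GENCODE 29 and promoters from RefSeq (GRCh38.p14). Replicate numbers come from the titles. Deviations of same-numbered libraries correlated over all genes (0.741 for hemizygous with wild-type, 0.357 for homozygous with wild-type and 0.476 for homozygous with hemizygous libraries), so the number was also fitted as a block. Chi-square per degree of freedom between replicates was 41.7 to 90.3, so no library was a copy. The genes and lists were chosen with earlier results of these data known. Genes given in full were the sensors, kinase, editors, main signalling and IFITM genes, and those with the largest differences among genes whose groups did not overlap. Of the pathway lists, a selection of the genes picked by that last rule is described.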

Additional observations from a re-analysis of the deposited data

How the results depend on the processing

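No gene of the 30 had an adjusted p under 0.05 in any of the 1329 tests made over 15 settings, DESeq2 and limma-voom among them. The edgeR filter removed no gene, so dropping it repeated the same fit and is not counted. The lowest was 0.199, for OAS3 in homozygous against wild-type cells in DESeq2 with the replicate block. Calls over all genes were 7 in hemizygous and 10 in homozygous cells against wild type and 10 between the edited genotypes in DESeq2, then 23, 121 and 24 in DESeq2 with the replicate block, and 1, 0 and 1 in edgeR with the block. With and without the block, 0 of the 30 genes were called, so there was no call for the pairing to change. In edgeR the genes of the 30 with an unadjusted p under 0.05 rose with the block from 1 to 5 in homozygous against wild-type cells. The share of all genes rose there from 2.69% to 12.0%. Between the edited genotypes the number rose from 1 to 4, and the share of all genes from 0.765% to 8.20%.

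With only genes of at least 5 CPM in at least 2 libraries, 23 of the 30 were tested, and the median log2 fold change was -3.66e-05 in hemizygous and 0.00435 in homozygous cells against wild type. In homozygous against wild-type cells the median was -0.14 in limma-voom, -0.12 in edgeR with the block and -0.13 in DESeq2 with the block. The count of genes above and below 0 was 15 and 15 without homozygous replicate 1, 8 and 22 without homozygous replicate 2 or wild-type replicate 1, and 14 and 16 without wild-type replicate 2. A few fold changes near 0 changed sign. With upper-quartile factors, IFITM1 was at 1.98e-05 in hemizygous, and DHX58 at 0.0031, STAT2 at 0.0314 and IFITM3 at 0.0169 in homozygous cells against wild type. In that comparison STAT2 was at 0.0162 and IFITM3 at 0.00435 with the 5 CPM minimum, and STAT2 at 0.000554 with only the 4 libraries compared. SOCS1 (0.61) and NFKB1 (-0.81) passed in homozygous against wild-type cells in DESeq2 with the block. The cause of these changes was not tested.

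Leaving out 1 library at a time gave 0 to 2 calls over all genes in hemizygous against wild-type cells, 0 to 1 in homozygous against wild-type cells and 0 to 3 between the edited genotypes, with 0 of the 30 in each. A genotype left with 1 library was assumed to vary like the others. The median of the 30 ran from -0.075 to -0.010, from -0.13 to -0.026 and, between the edited genotypes, from -0.13 to 0.0041. In hemizygous against wild-type cells the log2 fold change crossed 0 for EIF2AK2 -0.24 to 0.23, ADAR -0.31 to 0.20, ADARB1 -0.044 to 0.23, MAVS -0.28 to 0.011, IRF3 -0.30 to 0.032, STAT2 -0.0015 to 0.11, JAK1 -0.29 to 0.0011, IFITM1 -0.17 to 0.15 and IFITM2 -0.59 to 0.12. In homozygous against wild-type cells it did so for IFIH1 -0.23 to 0.45, DHX58 -0.48 to 0.31, ADARB1 -0.090 to 0.18, IRF3 -0.046 to 0.26, STAT2 -0.13 to 0.11, IFITM2 -0.12 to 0.44 and IFITM3 -0.060 to 0.037. Between homozygous and hemizygous cells it did so for DHX58 -0.18 to 0.62, TLR3 -0.42 to 0.13, EIF2AK2 -0.44 to 0.046, ADAR -0.50 to 0.019, ADARB1 -0.13 to 0.031, MAVS -0.28 to 0.024, STAT2 -0.17 to 0.067, JAK1 -0.26 to 0.039 and IFITM1 -0.015 to 0.30. OAS3 stayed below 0 in homozygous against wild-type cells, from -1.72 to -0.96. In that comparison IFI6 ran from -1.13 to -0.29, TICAM1 from -0.64 to -0.11, ASNS from -1.45 to -0.51, CHAC1 from -0.91 to -0.29, NFKB1 from -1.02 to -0.56 and SOCS1 from 0.34 to 0.95.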
